A study of Mus musculus with 4 samples.

Results

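Islet pericytes and mural cells, the contractile and supporting cells that wrap the capillaries and arterioles of the pancreatic islet, were picked out of 4 single-cell RNA libraries by their own transcripts. A barcode was kept when it held at least 1000 unique molecular identifiers (UMIs, each counting 1 captured RNA molecule), 500 genes or more, and no more than 20% of UMIs from mitochondrial genes. A kept barcode was a mural cell when it held at least 5 Rgs5 UMIs, or at least 10 UMIs of Acta2, Tagln and Myl9 together, with no Pdgfra (fibroblast) and no Ptprc (leukocyte) UMI, at most 1 UMI of the endothelial genes Pecam1 and Cdh5 together, and less than 20% of its UMIs from Ins1 and Ins2. These rules left 564 mural cells among 20845 kept barcodes, out of 26760 barcodes in all. The cells were thus selected on their counts of Rgs5, Acta2, Tagln, Myl9, Pdgfra, Ptprc, Pecam1, Cdh5, Ins1 and Ins2, and the levels of these genes are given below as a description.

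The cells came from islets of 4 groups of mice, with 1 library each: db/db mice at 70 days labelled early, db/db mice at 98 days labelled late, db/db mice at 98 days labelled late with intervention, and normal control mice at 98 days. The db/db mouse lacks a working leptin receptor and becomes obese and diabetic. Male C57BL/6 and C57BL/ksJ-db mice had been purchased, and diabetic animals were assigned at random once their blood glucose had passed 10 mmol/l. The deposited file of the early db/db sample carries a name that reads like a further control; the label of the sample was followed, and every early value rests on that label. The labels describe neither the intervention nor the number of mice behind a library. The genotype field reads db/db(C57BL/KsJ) for all 4 groups, the control included, so it does not tell the strain of the control. Diabetes and any difference of strain cannot be told apart: Rnaset2b had 0 UMIs in the mural cells of the early, late and intervention db/db libraries, against 83.3 CPM (UMIs per 1000000, defined below) in the control, and was lower in the other kept barcodes too.

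Pericytes sit on capillaries within the basement membrane they share with endothelial cells, are recruited by PDGF-B acting on their receptor Pdgfrb, and can narrow or relax the capillary. Vascular smooth muscle cells wrap arterioles and carry more of the contractile apparatus, and the cell types grade into each other along the vessel. In the islet, pericytes surround a dense capillary bed and are known to supply basement membrane and growth factors to beta cells.

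Both arms of the rule largely met in the same cells. The Rgs5 arm was met by 553 cells and the contractile arm by 387, with 376 meeting both, 177 the Rgs5 arm alone and 11 the contractile arm alone. Rgs5, which encodes a brake on G protein signalling and lies at chr1:169655501-169695813 on the plus strand (mm10), was detected in 291 of 298 early, 57 of 57 late, 123 of 126 intervention and 83 of 83 control cells. Ndufa4l2, a mitochondrial protein gene enriched in pericytes that the rule did not use, was detected in 280, 49, 115 and 79 cells of the same libraries, and its level was 1508, 1041, 1999.6 and 2154 CPM, against at most 9.13 CPM in the other kept barcodes of any library. Pdgfrb and Notch3 likewise stood at 368 to 861 CPM and 576 to 730 CPM in mural cells, and at most 4.41 CPM elsewhere. Markers outside the rule thus went with the label of mural cells. Few barcodes lay at the edge of the rule: Rgs5 counted exactly 5 UMIs in 1 early, 1 late, 2 intervention and 1 control member, and 4 UMIs in 5, 1, 2 and 0 barcodes of the early, late, intervention and control libraries that otherwise met the rule but for the arms.

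The 5′ ends of 3 genes of the rule and of Fbxl22, a gene that differed between the cells, are shown because the contractile genes varied together among these cells (below). Each run holds 300 bases, 250 before and 50 after the transcription start, from RefSeq on GRCm38.p6, 5′ to 3′ on the strand of the gene. Capitals mark the CArG box, the site that serum response factor binds in muscle genes, allowing 1 base off its consensus; the box is its own reverse complement, so both strands are covered. Rgs5 covers chr1:169655251-169655550 (plus), Acta2 chr19:34255324-34255623 (minus), Myl9 chr2:156775214-156775513 (plus) and Fbxl22, which encodes an F-box protein of the sarcomere, chr9:66514544-66514843 (minus).
Rgs5: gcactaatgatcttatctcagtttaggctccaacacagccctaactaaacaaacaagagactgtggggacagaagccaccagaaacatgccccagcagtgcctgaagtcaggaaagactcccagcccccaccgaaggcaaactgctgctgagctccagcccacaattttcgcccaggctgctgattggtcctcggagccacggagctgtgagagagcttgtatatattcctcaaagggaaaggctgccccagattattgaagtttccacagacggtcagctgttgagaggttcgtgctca
Acta2: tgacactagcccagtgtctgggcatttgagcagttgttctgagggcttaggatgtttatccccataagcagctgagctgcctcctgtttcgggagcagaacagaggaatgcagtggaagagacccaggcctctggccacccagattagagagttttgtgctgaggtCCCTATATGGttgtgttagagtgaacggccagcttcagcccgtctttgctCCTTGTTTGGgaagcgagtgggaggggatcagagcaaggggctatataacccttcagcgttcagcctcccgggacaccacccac
Myl9: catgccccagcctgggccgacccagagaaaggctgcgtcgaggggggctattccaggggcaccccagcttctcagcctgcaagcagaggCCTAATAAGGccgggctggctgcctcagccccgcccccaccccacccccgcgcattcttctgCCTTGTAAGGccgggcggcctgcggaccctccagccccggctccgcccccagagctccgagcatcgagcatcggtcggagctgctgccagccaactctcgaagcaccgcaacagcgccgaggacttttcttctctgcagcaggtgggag
Fbxl22: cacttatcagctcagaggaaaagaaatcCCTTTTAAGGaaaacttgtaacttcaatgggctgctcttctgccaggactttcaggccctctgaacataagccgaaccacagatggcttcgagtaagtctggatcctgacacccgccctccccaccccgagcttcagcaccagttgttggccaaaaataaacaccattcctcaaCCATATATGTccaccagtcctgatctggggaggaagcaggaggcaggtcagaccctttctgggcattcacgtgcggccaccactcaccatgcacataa
An exact box stood in 4 of 36 promoters (11.1%) of 29 matched genes of the contractile list, in 0 of 27 promoters of 19 matched genes of the pericyte list, and in 535 of 32851 promoters (1.63%) of all genes. With 1 base off allowed, the shares were 33.3%, 14.8% and 21.1%. A match is a string of letters and does not show binding.

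**Figure D1:**
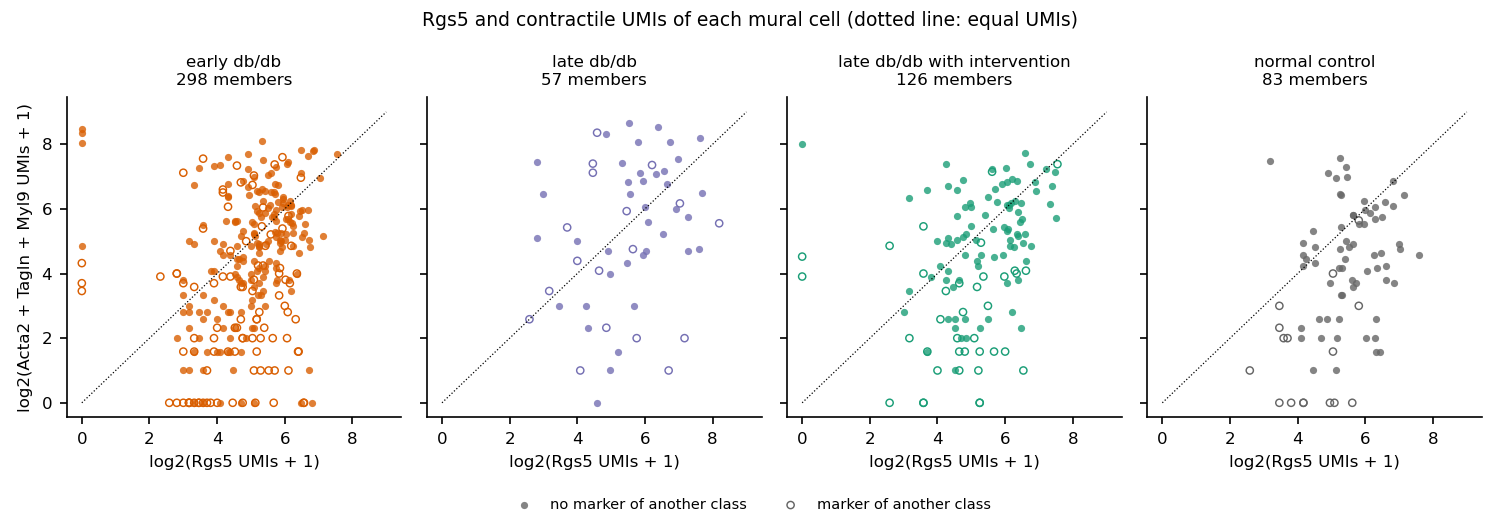
Each point is 1 mural cell, with log2(Rgs5 UMIs + 1) on the horizontal axis and log2(Acta2 + Tagln + Myl9 UMIs + 1) on the vertical axis, 1 panel per library; open points also hold markers of another cell class. The 298 early, 57 late, 126 intervention and 83 control cells form a spread along and across the dotted line of equal UMIs, not separate clouds.

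Sequencing depth was 120934779 to 166034254 UMIs per library, and the median mural cell held 3958.5 UMIs in the early, 7061 in the late, 4598 in the intervention and 5406 in the control library. Of the 564 cells, 97 early, 18 late, 37 intervention and 16 control cells also held markers of another class (fibroblast, epithelial, endocrine, mesothelial, Schwann or leukocyte). By number of cells the class was mostly fibroblast. These cells gave 56.4%, 53.2%, 42.7% and 37.3% of the mural UMIs. Cells with markers of a class other than fibroblast were few, 20 early, 7 late, 5 intervention and 5 control, but held up to 97005 UMIs. They gave 31.6%, 36.6%, 16.9% and 26.9% of the mural UMIs. Fibroblast-marked cells, some of them the same cells, gave 26.3%, 27.3%, 25.7% and 10.4%. Values without all other-class cells are therefore given beside the counts of lists and beside many single genes, and are called values of cells without other-class markers. Free RNA, estimated from insulin transcripts, made up 1.13%, 2.80%, 11.8% and 5.71% of the mural UMIs in the same order. Libraries shared 77 barcodes in pairs, of which 0 were mural cells. Genes of other cells differed between libraries: acinar Prss2 stood at 2023 CPM in early mural cells and between 10.4 and 153 CPM in the others, haemoglobin Hbb-bs at 1107 CPM in intervention cells and between 3.97 and 22.4 CPM in the others, and among the other kept barcodes Prss2 was also highest in the early library (1857 CPM) and Hbb-bs in the intervention library (670 CPM). Their part in the results was not tested.

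With 1 library a group, no difference between groups can be tested against the spread between mice. Levels are UMIs summed over the cells, scaled to 1000000 UMIs outside mitochondrial and hormone genes (CPM), and ratios carry 95% intervals that cover counting error only. Genes were compared when the higher of the pair of libraries reached 50 CPM and both together 30 UMIs, and a gene was called when the libraries differed 2-fold or more. A lower level in a sum cannot tell fewer cells with the transcript from less RNA in each cell.

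Mural cells made up the largest share of kept barcodes in early db/db islets and the smallest in late db/db islets. They were 298 of 4800 kept barcodes (6.21%, exact 95% binomial interval 5.54 to 6.93) in the early, 57 of 6301 (0.905%, 0.686 to 1.17) in the late, 126 of 5115 (2.46%, 2.06 to 2.93) in the intervention and 83 of 4629 (1.79%, 1.43 to 2.22) in the control library. The intervals of the 4 libraries overlapped only between the intervention and the control. They cover the counting of cells within 1 library each, and leave out the spread between mice and between captures. The order early, intervention, control, late held without other-class cells (4.19%, 1.74%, 1.45% and 0.619%). It also held after kept barcodes with at least 2000 UMIs were thinned to 2000 UMIs (5.51%, 2.24%, 1.65% and 0.998%). Barcodes under 2000 UMIs were left out of the thinned share. Barcodes that had failed a lineage filter on all UMIs could enter it after thinning. The share of mural cells moves with every other cell type that was captured. The median kept barcode held 14993, 6428, 26842 and 26469 UMIs in the early, late, intervention and control libraries. The lineage filters also removed unequal numbers: 42 early, 105 late, 18 intervention and 24 control barcodes met an arm of the rule and failed only there, 78 of the late ones through Pdgfra.

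The balance of the cells differed between libraries as well. Rgs5 UMIs exceeded the sum of Acta2, Tagln and Myl9 in 190 of 298 early cells (63.8%, 58.0 to 69.2), 28 of 57 late cells (49.1%, 35.6 to 62.7), 82 of 126 intervention cells (65.1%, 56.1 to 73.4) and 64 of 83 control cells (77.1%, 66.6 to 85.6). The late interval did not overlap the control interval with all UMIs of all cells, but these intervals too cover counting error only. After thinning every cell to 1000 UMIs, with a tie counted against Rgs5, the shares were 58.7%, 50.9%, 63.5% and 66.3%. This brought the control close to the intervention library. Without other-class cells the shares were 58.7%, 48.7%, 57.3% and 71.6%. The late and control intervals then overlapped: 37.3 to 64.4 against 55.1 to 76.3 after thinning, and 32.4 to 65.2 against 59.3 to 82.0 without other-class cells. Rgs5 itself stood at 7573, 7261, 10934 and 8254 CPM, and Acta2, the smooth muscle actin, at 3432, 4204, 3985 and 2205 CPM in the early, late, intervention and control cells. Acta2, Tagln and Myl9 were each lowest in the control; these are levels of the genes that chose the cells.

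Compared with the normal control, mural cells of late db/db islets had lower levels of pericyte genes and higher levels of contractile, immediate early and chemokine genes. Of 4184 genes measured, 270 (6.45%) were at least 2-fold higher and 176 (4.21%) at least 2-fold lower in late cells, of which 89 and 80 were called in the same direction without other-class cells. Of 24 measured genes of the pericyte list, 0 were higher and 7 lower in late cells, with a median log2 ratio of -0.82 against -0.05 over all genes; without other-class cells it was 6 lower of 22, and a median of -0.60. Of the 7 lower genes, 3 were also 2-fold lower in the other kept barcodes, where the median of the list was 0.48.

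Among the lower ones was a gene of the ATP-sensitive potassium channel of pericytes. Abcc9, which encodes its SUR2 subunit, stood at 76.3 CPM in late cells, against 196 CPM in control cells, a log2 ratio of -1.36 (-1.94 to -0.82), and at 55.3 CPM against 299 CPM without other-class cells. Its neighbour Kcnj8, the pore subunit, stood at 52.8 CPM in late cells and 97.2 CPM in control cells, under a 2-fold difference, and at 38.3 CPM against 143 CPM without other-class cells (log2 ratio -1.90). The genes lie next to each other on chromosome 6, Kcnj8 at chr6:142564837-142571614 and Abcc9 at chr6:142587862-142702315, both on the minus strand. Abcc9 had a UMI in 18 of 57 late and 47 of 83 control cells (31.6% and 56.6%), against 4.11% and 0.123% of insulin-rich barcodes, whose median depths were 88033 and 49714 UMIs. The late mural cells had the lower share although their median depth was the higher one. Abcc9 was lower in late cells within both kinds of mural cell compared below: 110.0 CPM in late and 190.5 CPM in control Rgs5-rich cells, and 42.3 and 122 CPM in Acta2-rich cells.

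Other pericyte genes followed the same direction. Steap4, a metalloreductase, stood at 74.3 CPM in late and 234 CPM in control cells (log2 ratio -1.65), and Cox4i2, a hypoxia-type subunit of cytochrome oxidase, at 301 and 831 CPM (-1.46). Art3 stood at 127 and 389 CPM (-1.61), and Cspg4, the NG2 proteoglycan that marks pericytes, at 178 and 369 CPM (-1.05). All 4 ratios kept their sign without other-class cells (-2.20, -1.01, -1.47 and -0.77), the last of them under 2-fold. Pdgfrb, with 438 CPM in late and 861 CPM in control cells, missed the 2-fold limit (log2 ratio -0.97).

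**Figure D2:**
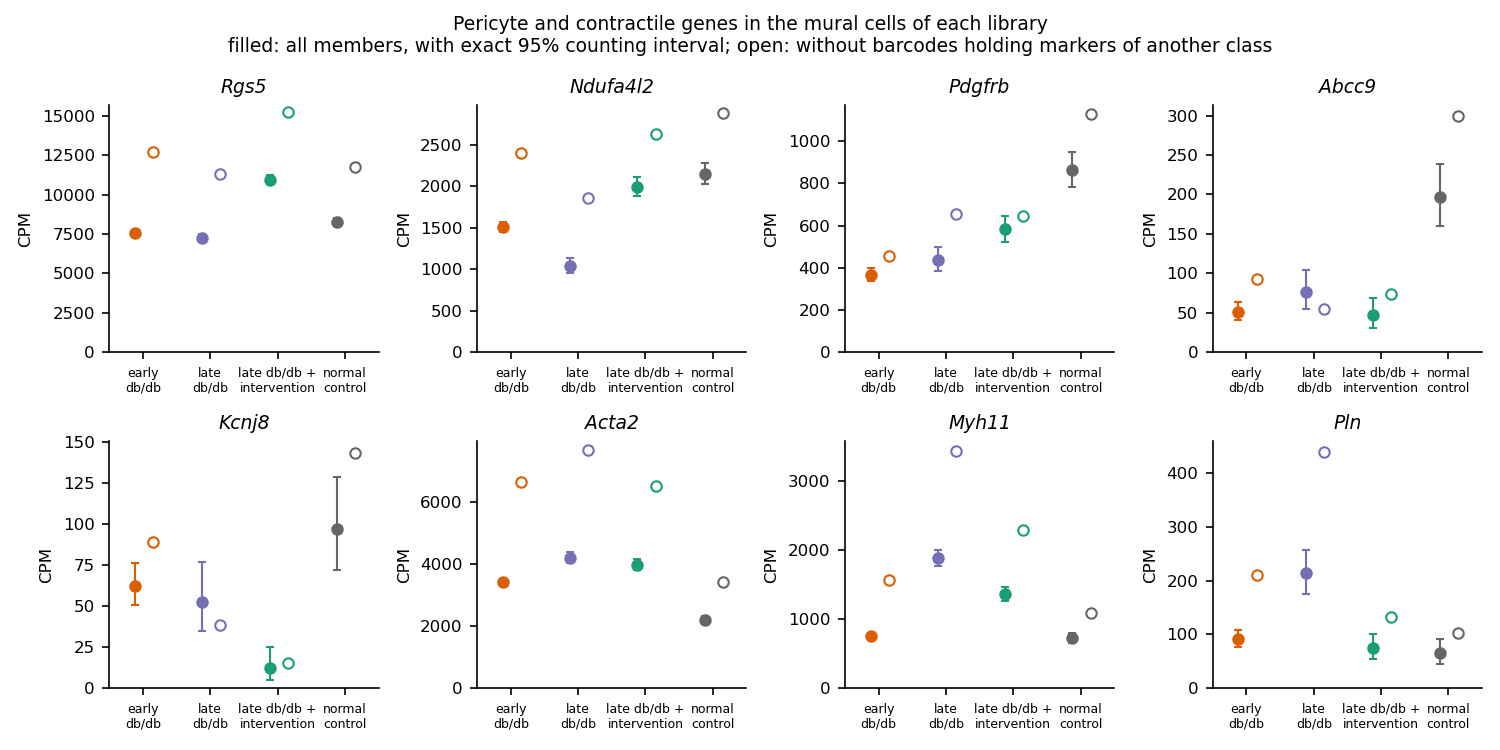
CPM (vertical axis, from 0) of 8 identity genes in mural cells of the early db/db, late db/db, late db/db with intervention and normal control libraries; filled points are all mural cells with exact 95% Poisson intervals, open points the cells without other-class markers. Abcc9 is highest in the control at 196 CPM, and Myh11 is highest in late db/db at 1886 CPM.

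The contractile genes lay on the other side. Of 29 measured, 7 were higher and 0 lower in late cells, with a median log2 ratio of 0.59. Without other-class cells 9 of 29 were higher, with a median of 0.82, 1 of them the rule's own Acta2. The counts and medians of this list, here and in the other library comparisons, thus draw in part on values that chose the cells. Of the 7, 5 were 2-fold higher in the other kept barcodes too and 0 in endothelial-gate barcodes (at least 5 UMIs of Pecam1 and Cdh5), where the median of the list was 1.38 and 0.19. Myh11, the smooth muscle myosin heavy chain, stood at 1886 CPM in late and 724 CPM in control cells, a log2 ratio of 1.38 (1.21 to 1.56), and at 8.11 and 1.82 CPM in the other kept barcodes. Pln, which encodes phospholamban, the brake on the calcium pump of the muscle reticulum, stood at 213 and 65.4 CPM (1.70), but was found in only 13 late and 4 control cells, 1 of which gave 42.4% of the control UMIs. The tropomyosins Tpm1 and Tpm2 stood at 2255 and 1976 CPM in late cells, against 1107 and 968 CPM in control cells, and at 3674 and 3257 CPM against 1612 and 1481 CPM without other-class cells. Cnn1, encoding calponin, had 54.8 CPM in late cells, from 7 cells, and 0 UMIs in control cells. The late library also had the larger share of Acta2-rich cells, whose part was not tested. On the sides of that split, Myh11 stood at 808 CPM in late and 465 CPM in control Rgs5-rich cells, and 2518 and 1459 CPM in Acta2-rich cells.

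The list of immediate early genes, which cells switch on within minutes of a stimulus, and heat shock genes had 13 of 23 higher and 0 lower, with a median log2 ratio of 1.16; without other-class cells 12 of 22 were higher. All 13 with all cells were immediate early genes, and the 7 heat shock genes measured had log2 ratios of -0.56 (Hspa1a) to 0.68 (Hsph1). Fos stood at 3261 CPM in late and 1158 CPM in control cells, and Junb at 2048 and 575 CPM; without other-class cells they stood at 3750 and 1440 CPM, and at 1809 and 458 CPM. Atf3, a stress-induced transcription factor, stood at 552 and 39.7 CPM, a log2 ratio of 3.80 (3.14 to 4.53), and at 417 and 34.3 CPM without other-class cells. Klf2 and Klf4 stood at 896 and 223 CPM in late cells, against 175 and 45.6 CPM in control cells. Of the 13 genes, 5 were 2-fold higher in the other kept barcodes too and 3 in endothelial-gate barcodes, where the median of the list was 0.33 and -0.14. The part of what moved in the other barcodes was not tested.

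Chemokine, cytokine and adhesion genes were higher in 14 of 20 and lower in 0 in late cells, with a median log2 ratio of 2.61, but 13 of the 14 were at least 2-fold higher in the other kept barcodes as well, where the median of the list was 4.29. Without other-class cells 6 of 10 were higher and 0 lower, with a median of 2.53. Ccl21a, a chemokine of lymphatic and reticular cells, had 8355 CPM in late cells and 0 UMIs in control cells. This was at least 1404-fold higher with 3 UMIs in place of the 0. Only 15 of 57 late cells held it (26.3%), against 57.3% of insulin-rich barcodes of the same library. Those barcodes were deeper, with a median of 88033 UMIs against 7061 in late mural cells. Without other-class cells the level of Ccl21a was 1277 CPM, against 1312 CPM in the other kept barcodes. The source of its UMIs was not tested. Cxcl1, a neutrophil attractant, stood at 270 CPM in late cells and 3.97 CPM in control cells, a log2 ratio of 6.09 (4.21 to 9.15), and was detected in 26.3% of late mural cells against 2.90% of insulin-rich barcodes; without other-class cells it stood at 213 CPM in late cells and had 0 UMIs in control cells. Socs3, the feedback inhibitor of cytokine receptors, stood at 307 and 39.7 CPM (2.95), and kept 2.72 without other-class cells. Cxcl9 rested on 1 cell, which gave 92.1% of its late UMIs. Class I antigen presentation gene H2-D1 stood at 2234 CPM in late and 514 CPM in control cells, and B2m at 861 and 294 CPM, with log2 ratios of 2.25 and 2.43 in the other kept barcodes.

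A few genes outside these lists had larger ratios than most. Fgl2, encoding a fibrinogen-like protein, stood at 178 CPM in late and 3.97 CPM in control cells, a log2 ratio of 5.49 (3.59 to 8.56), and differed little in the other kept barcodes (-0.31). A single late cell gave 46.2% of its UMIs. It was found in 45.6% of late and 2.41% of control mural cells, against 54.2% and 26.1% of insulin-rich barcodes. The insulin-rich barcodes were far deeper, with medians of 88033 and 49714 UMIs against 7061 and 5406 in mural cells. These shares therefore cannot tell whether the mural cells lie above background. The level of Fgl2 in the other kept barcodes was 26.7 CPM in the late and 33.1 CPM in the control library, below and above that of the mural cells. On the lower side, Adcyap1r1, the PACAP receptor, stood at 9.78 CPM in late and 79.3 CPM in control cells, a log2 ratio of -3.02 (-4.72 to -1.68), and at 8.51 and 84.2 CPM without other-class cells, while the other kept barcodes went the other way (2.16). Lamtor3, at 13.7 and 127 CPM, was also lower in the other kept barcodes (-1.97).

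**Figure D3:**
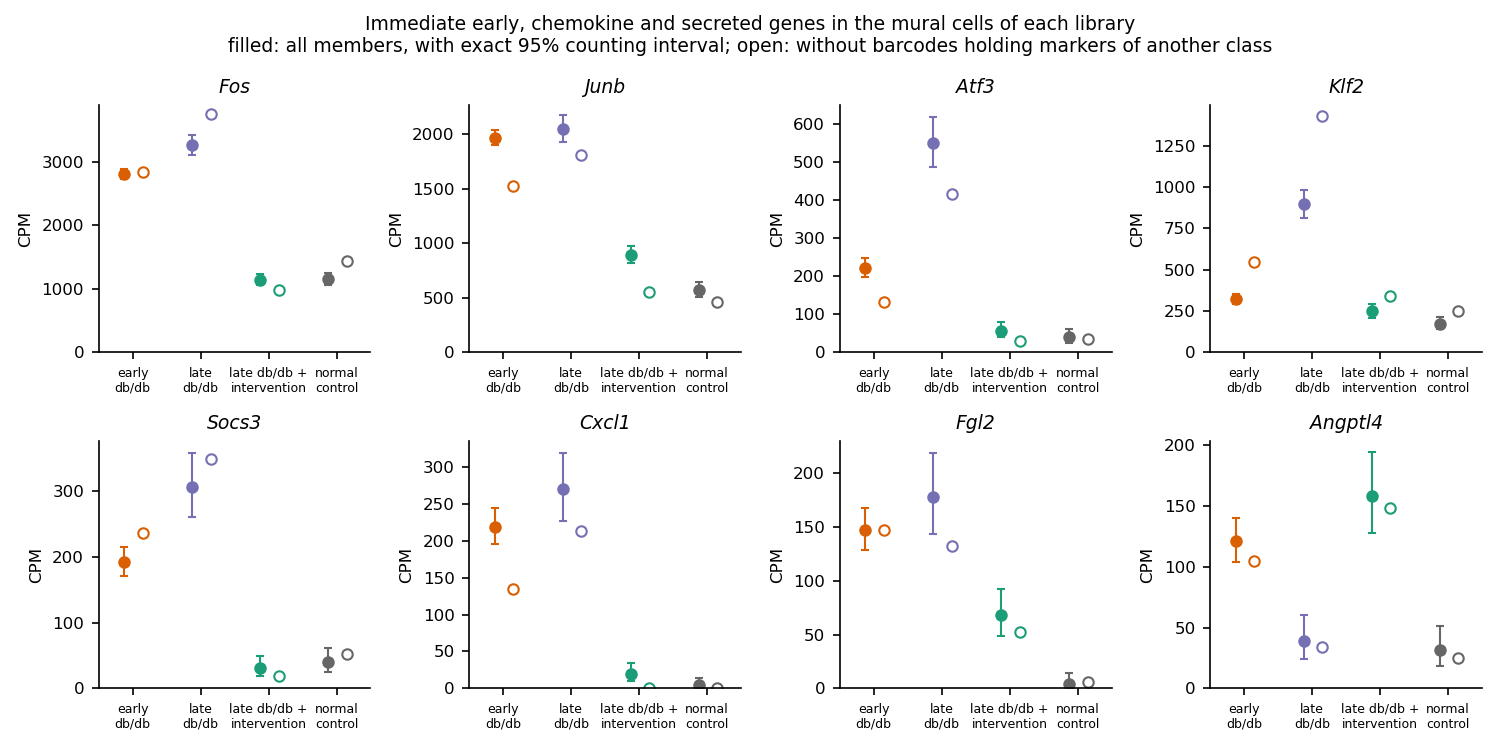
CPM (vertical axis, from 0) of 8 response genes in mural cells of the early db/db, late db/db, late db/db with intervention and normal control libraries; filled points are all mural cells with exact 95% Poisson intervals, open points the cells without other-class markers. Junb and Cxcl1 are higher in the early and late db/db libraries (1965 and 2048 CPM, 219 and 270 CPM) than in the intervention and control libraries (893 and 575 CPM, 19.1 and 3.97 CPM).

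In mural cells of early db/db islets, pericyte genes were lower and immediate early and chemokine genes higher than in the control, and no contractile gene was called. The early and late ratios share the control library, so a value unusual in the control moves both. Of 4062 genes measured, 221 (5.44%) were called higher and 152 (3.74%) lower in early cells, of which 106 and 104 were called the same way without other-class cells; with TMM scaling the split was 271 higher and 101 lower. In the pericyte list, 1 of 24 was higher (Colec11) and 5 were lower, with a median of -0.38 against -0.06 over all genes. In cells without other-class markers Pdgfrb, Abcc9, Art3 and Heyl were lower and 0 higher of 23.

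Abcc9 stood at 51.4 CPM in early cells, against 196 CPM in control cells, a log2 ratio of -1.93 (-2.38 to -1.49). Pdgfrb stood at 368 and 861 CPM (-1.23, -1.41 to -1.04). Nes, encoding nestin, an intermediate filament of pericytes and progenitors, stood at 30.3 and 178 CPM (-2.56), and the late and intervention libraries were also below the control, with 46.9 and 67.9 CPM. Without other-class cells it stood at 45.4 CPM in early and 277 CPM in control cells, and its level in the other kept barcodes was lower too (-1.79). Adcyap1r1 stood at 9.22 and 79.3 CPM (-3.10), and Nrgn, encoding the calmodulin-binding protein neurogranin, at 40.2 and 218 CPM (-2.44).

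Of 27 contractile genes measured, 0 were called in either direction in early cells, with a median log2 ratio of 0.06. Without other-class cells Sorbs2, Mustn1, Pln and Csrp1 were higher, with a median of 0.49. Myh11 stood at 751 CPM in early and 724 CPM in control cells, which counting error alone could give (0.05, -0.12 to 0.23). Without other-class cells it stood at 1568 and 1088 CPM.

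Of the immediate early and heat shock list, 9 of 23 were higher in early against control (median 0.83), none of them a heat shock gene, and 8 of 23 without other-class cells. Fos stood at 2810 CPM in early and 1158 CPM in control cells, Junb at 1965 and 575 CPM, and Atf3 at 222 and 39.7 CPM. Of these 9 genes, 6 were also 2-fold higher in the other kept barcodes and 1 in endothelial-gate barcodes. Of 16 chemokine, cytokine and adhesion genes, 9 were higher and 0 lower (median 1.13), all 9 of them 2-fold higher in the other kept barcodes too, where the median was 2.67; without other-class cells 4 of 8 were higher. Cxcl1 stood at 219 and 3.97 CPM, Ccl2 at 106 and 3.97 CPM, and Socs3 at 192 and 39.7 CPM in early and control cells; 1 cell gave 59.0% of the early Ccl2 UMIs.

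Collagens and other fibrillar matrix genes were higher in 11 of 23 early against control, but in 0 of 12 once cells with other-class markers were left out. Col1a1 stood at 892 CPM in early and 159 CPM in control cells with all cells, and at 49.96 and 0 CPM without them; Col3a1 stood at 2023 and 809 CPM with all cells, and at 310 and 271 CPM without them. The fibroblast gene Dcn had at least 3 UMIs in 76 early, 15 late, 28 intervention and 11 control cells. The basement membrane gene Col4a1 went the other way, with 669 CPM in early and 1150.2 CPM in control cells, and 483 and 1291 CPM without other-class cells. Among secreted factors, Igfbp4, which binds insulin-like growth factors, stood at 634 and 129 CPM (2.30, 1.93 to 2.68), with 3.36 in the other kept barcodes. Bmp5, a ligand of the BMP family, stood at 20.4 CPM in early and 75.4 CPM in control cells (-1.88). The intervention and late libraries held 26.1 and 15.6 CPM of Bmp5, also below the control, and the other kept barcodes of every library held at most 0.0988 CPM.

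Between the 2 diabetic stages, few contractile genes were called with all cells, each of them higher in late cells. The pericyte list had 1 call, near the share over all genes. Of 4068 genes, 160 (3.93%) were higher and 142 (3.49%) lower in late cells, with 57 and 57 called the same way without other-class cells. Of 30 contractile genes 4 were higher and 0 lower, with a median of 0.40 against 0.02 over all genes, and 4 of 31 were higher without other-class cells. Of 24 pericyte genes 1 was lower, Colec11, and 0 higher, with a median of -0.29; without other-class cells Kcnj8, Steap4 and Anpep were lower of 24. Myh11 stood at 1886 CPM in late and 751 CPM in early cells, a log2 ratio of 1.33 (1.20 to 1.45), and at 3435 and 1568 CPM without other-class cells. Cnn1 stood at 54.8 and 9.88 CPM, and Mylk, the myosin light chain kinase, at 888 and 437 CPM. Pln stood at 213 and 91.6 CPM.

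Angptl4, a secreted inhibitor of lipoprotein lipase, was lower in late than in early cells, with 39.1 and 121 CPM (log2 ratio -1.63, -2.38 to -0.96). Klf2 and Atf3 were higher in late cells, at 896 and 552 CPM, against 323 and 222 CPM in early cells. Fos and Junb differed by less than 2-fold, at 3261 and 2048 CPM in late and 2810 and 1965 CPM in early cells. The 2 groups also differ in age, 98 days against 70 days, so stage and age cannot be told apart.

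Mural cells of late db/db islets with the intervention had lower immediate early and chemokine genes than late db/db cells without it. Of 4081 genes, 145 (3.55%) were called higher and 224 (5.49%) lower in intervention cells, with 49 and 56 called the same way without other-class cells; with all UMIs as the denominator the split was 101 higher and 263 lower, and the median of all genes shifted by -0.13. Of 23 immediate early and heat shock genes, 0 were higher and 12 lower, all 12 of them immediate early, with a median of -1.18 against -0.01 over all genes, and 12 of 23 were lower without other-class cells (median -1.05). Fos stood at 1145 CPM in intervention and 3261 CPM in late cells, a log2 ratio of -1.51 (-1.64 to -1.38). Atf3 stood at 57.4 and 552 CPM (-3.26), and Klf2 at 249 and 896 CPM (-1.85). Of the 12 genes, 10 were also 2-fold lower in the other kept barcodes and 1 in endothelial-gate barcodes.

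Chemokine, cytokine and adhesion genes were lower in 10 of 20 and higher in 0, and all 10 were 2-fold lower in the other kept barcodes too; without other-class cells 6 of 10 were lower and 0 higher. Cxcl1 stood at 19.1 CPM in intervention and 269.95 CPM in late cells, and Socs3 at 31.3 and 307 CPM, a log2 ratio of -3.29 (-4.09 to -2.59). Id1, a target of BMP signalling, stood at 197 and 530.1 CPM (-1.43), and at 325 and 966 CPM without other-class cells; it did not differ 2-fold in the other kept barcodes (0.23). Angptl4 was higher, at 158 CPM in intervention and 39.1 CPM in late cells (2.02, 1.31 to 2.79), with the other kept barcodes going the other way (-1.20).

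The pericyte list was higher in 4 of 24 and lower in 1 with all cells, Kcnj8, and without other-class cells only Steap4 was called, higher, of 22. Steap4 stood at 152 CPM in intervention and 63.9 CPM in late cells without other-class cells. Kcnj8 stood at 12.2 CPM in intervention and 52.8 CPM in late cells, a log2 ratio of -2.12 (-3.56 to -0.88), with 7 UMI-bearing cells among 126 and 16 among 57. Contractile genes were lower in 3 of 30, Cnn1, Synpo2 and Pln, of which Pln was called without other-class cells. Myh11, at 1364 and 1886 CPM, was under the 2-fold limit. Fibrillar matrix was higher in 12 of 23, but without other-class cells Mgp alone was higher of 12 and Adamts1 alone lower. Mgp, the matrix Gla protein that blocks calcification, stood at 14293 CPM in intervention and 5243 CPM in late cells (1.45, 1.38 to 1.51), and at 17355 and 6543 CPM without other-class cells.

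**Figure D4:**
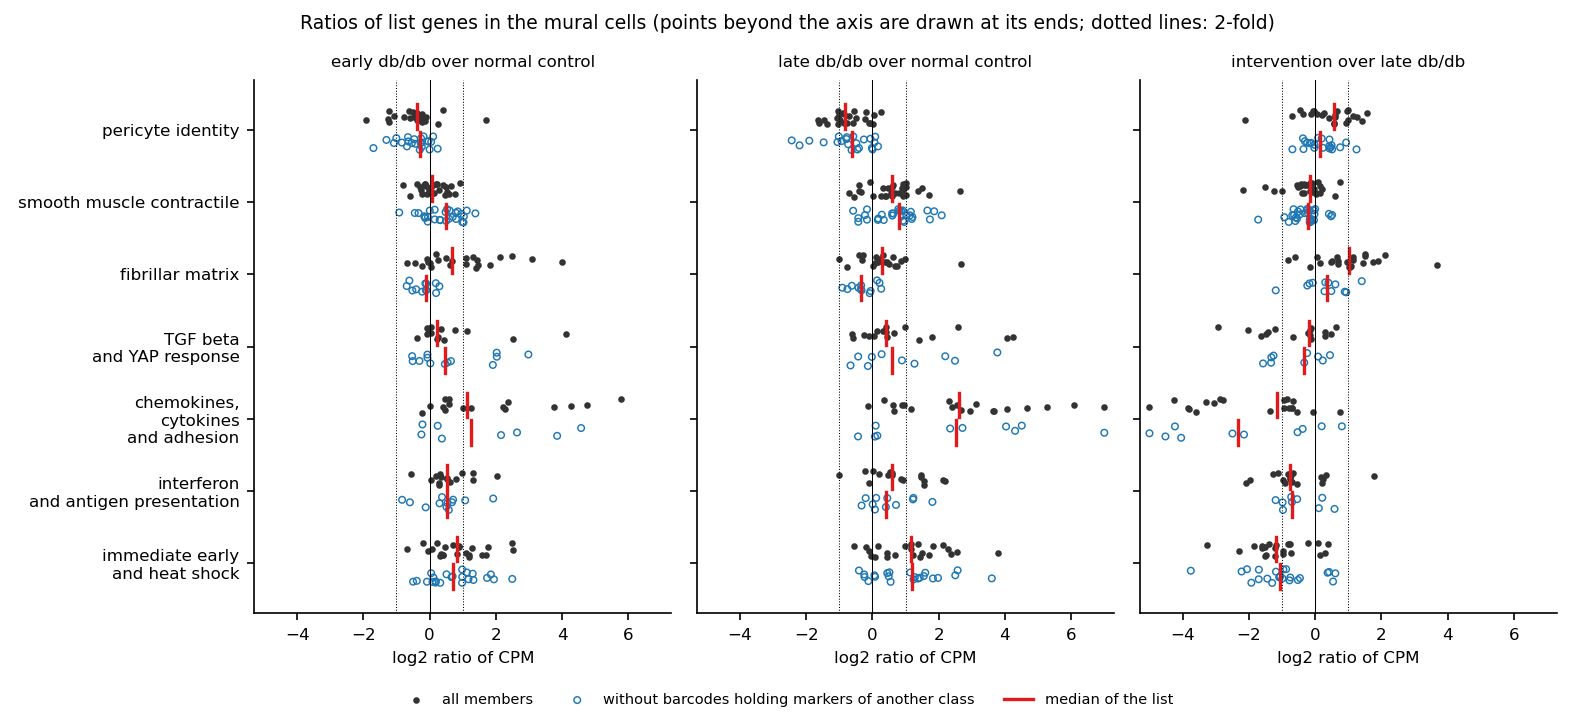
Log2 ratios of single genes (horizontal axis; points beyond the axis are drawn at its ends) in 7 gene lists (rows) for early db/db over control, late db/db over control and intervention over late db/db; filled points are all mural cells, open points cells without other-class markers, red bars medians. The immediate early and heat shock list has medians of 0.83, 1.16 and -1.18, and the fibrillar matrix list in early over control has a median of 0.67 with all cells and -0.12 without other-class cells.

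Set against the normal control, the intervention library had no immediate early gene called with all cells, and lower levels of Kcnj8 and Abcc9. Of 4055 genes, 162 (4.00%) were called higher and 142 (3.50%) lower in intervention cells, with 64 and 70 called the same way without other-class cells; the split was 186 higher and 97 lower with TMM scaling. Of 22 immediate early and heat shock genes 0 were called in either direction, with a median of 0.13 against -0.05 over all genes; without other-class cells Ier3 and Hsph1 were higher and Hspa1b lower, of 22. Of 11 chemokine, cytokine and adhesion genes 4 were higher, and 0 of 4 without other-class cells. Fos stood at 1145 CPM in intervention and 1158 CPM in control cells (-0.02, -0.18 to 0.15).

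Of 23 vasoactive receptor and channel genes, 0 were higher and 4 lower in intervention cells, and the same 4 were called without other-class cells. Kcnj8 stood at 12.2 CPM in intervention and 97.2 CPM in control cells, a log2 ratio of -3.00 (-4.38 to -1.85), and at 15.5 and 143 CPM without other-class cells. It had a UMI in 5.56% of intervention and 37.3% of control cells, against 0.532% and 0.0408% of insulin-rich barcodes, with median depths of 4598 and 5406 UMIs in the mural cells and 42090 and 49714 UMIs in the insulin-rich barcodes. Abcc9 stood at 47.0 and 196 CPM (-2.06, -2.73 to -1.44). Agtr1a, the angiotensin II receptor that constricts vessels, stood at 76.6 and 163 CPM (-1.09), and Adra2a, an adrenergic receptor, at 27.8 and 63.5 CPM (-1.19).

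Across the 4 libraries, Abcc9 was therefore highest in the control at 196 CPM (95% interval 160 to 239), with early at 51.4 (40.6 to 64.1), late at 76.3 (54.3 to 104) and intervention at 47.0 (31 to 68.4), whose intervals overlap each other and not that of the control. Kcnj8 ran from 97.2 in the control (71.9 to 128) through 62.6 in early (50.6 to 76.5) and 52.8 in late (34.8 to 76.8) to 12.2 in intervention (4.90 to 25.1), and only the intervention interval lay apart from all others. Endothelin receptor gene Ednrb, another vasoactive gene of pericytes, stood at 498, 397, 566 and 514 CPM in the early, late, intervention and control cells and was called in no comparison between libraries. Myh11 stood at 1364 CPM in intervention and 724 CPM in control cells (0.91), under 2-fold with all cells and over it without other-class cells (1.08). Angptl4 stood at 158 and 31.7 CPM (2.32). The globin Hbb-bs had the largest ratio of this comparison, but was found in 81.0% of intervention mural cells and in 86.9% of insulin-rich barcodes of that library.

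The last comparison set Rgs5-rich cells, with more Rgs5 than Acta2, Tagln and Myl9 UMIs, against Acta2-rich cells of the same library. In the early, late, intervention and control libraries, Rgs5-rich cells held a median of 35, 51.5, 42 and 46.5 Rgs5 UMIs. Acta2-rich cells held 31, 44, 26.5 and 37. The medians of Acta2 were 3, 3, 5 and 3 against 29.5, 57, 30 and 33 UMIs. The sides thus differed more in Acta2 than in Rgs5. Acta2-rich cells had higher levels of most of the contractile list, and Rgs5-rich cells without other-class markers had higher levels of Abcc9, Steap4, Kcnj8, Pdgfrb and type IV collagen. The split read Rgs5, Acta2, Tagln and Myl9 in the very cells compared, and those 4 genes were left out of the test. Genes that vary with them across cells, pericyte genes as well as contractile ones, differ in part by that choice. The counts, fold changes and p-values of the split are therefore a description, and do not test a difference independent of it. Sums per library and side (190 and 108 early, 28 and 29 late, 82 and 44 intervention, 64 and 19 control cells) entered edgeR's quasi-likelihood test with the library as a block, and p-values were adjusted by Benjamini-Hochberg over all 5618 genes tested. At an adjusted p under 0.05, 185 genes (3.29%) were higher and 271 (4.82%) lower in Rgs5-rich cells, 456 in all (8.12%), and 436 of them had the same direction in all 4 libraries.

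A part of these calls went with other-class cells, which were 72 of 190, 9 of 28, 31 of 82 and 16 of 64 Rgs5-rich cells, and 25 of 108, 9 of 29, 6 of 44 and 0 of 19 Acta2-rich cells of the early, late, intervention and control libraries. The gene with the highest fitted fold change was Ambp, which encodes a plasma protein precursor made in liver, at 102 to 401 CPM in Rgs5-rich cells and 0 in Acta2-rich cells; in cells without other-class markers it stood at most at 4.49 CPM and was not testable. Of the 185 higher genes, 122 could not be tested without other-class cells, against 27 of the 271 lower ones. In that second fit 238 of 3071 genes (7.75%) were called, 120 higher (3.91%) and 118 lower (3.84%). Both fits called 122 genes in the same direction, 26 higher and 96 lower in Rgs5-rich cells. The 26 higher ones include the acinar genes Pnlip, Cela3b and Prss2. In the second fit the 4 acinar markers tested, the 3 beta markers and Sst were called higher in Rgs5-rich cells, while Gcg, Ppy and Pyy were not called. Some transcripts of other cell types thus remained higher on that side without other-class cells.

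Pln showed the widest gap of the contractile genes. It stood at 0.911, 0, 13.0 and 0 CPM in Rgs5-rich cells of the early, late, intervention and control libraries, against 261, 355, 190.2 and 311 CPM in Acta2-rich cells. Every library showed the gap, with no overlap, a log2 fold change of -6.24 ± 0.48 (SE) and an adjusted p of 2.6e-05 by edgeR; without other-class cells it was -5.37. Fbxl22 stood at 11.8, 4.23, 39.0 and 13.3 CPM in Rgs5-rich cells, against 242, 277, 242 and 169 CPM in Acta2-rich cells, a log2 fold change of -3.74 ± 0.32 (adjusted p of 5.7e-05 by edgeR). Its promoter, printed above, held an exact CArG box, as did that of Myl9 but not that of Acta2. The part of the box in the difference was not tested. Tpm2 stood at 403, 601, 867 and 574 CPM in Rgs5-rich cells, against 2951, 2827, 3151 and 2156 CPM in Acta2-rich cells. Myh11 stood at 329.6, 808, 667 and 465 CPM in Rgs5-rich cells, against 1469, 2518, 2447 and 1459 CPM in Acta2-rich cells.

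Of 28 contractile genes tested, 23 were lower and 0 higher in Rgs5-rich cells, with a median of -1.24 against 0.02 over all genes. Without other-class cells 16 of 25 were lower, with a median of -0.74, and 15 were called in both fits. Genes lower outside the list included Tcap (-3.59), which caps titin at the sarcomere edge, the Wnt inhibitor Nkd1 (-2.74), the aggrecanase Adamts5 (-2.62) and Asb2 (-2.53), a muscle ubiquitin ligase subunit. A channel gene and a pump gene followed: Kcna5, a voltage-gated potassium channel, at -1.94, and Atp2a2, the calcium pump that Pln restrains, at -1.23.

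**Figure D5:**
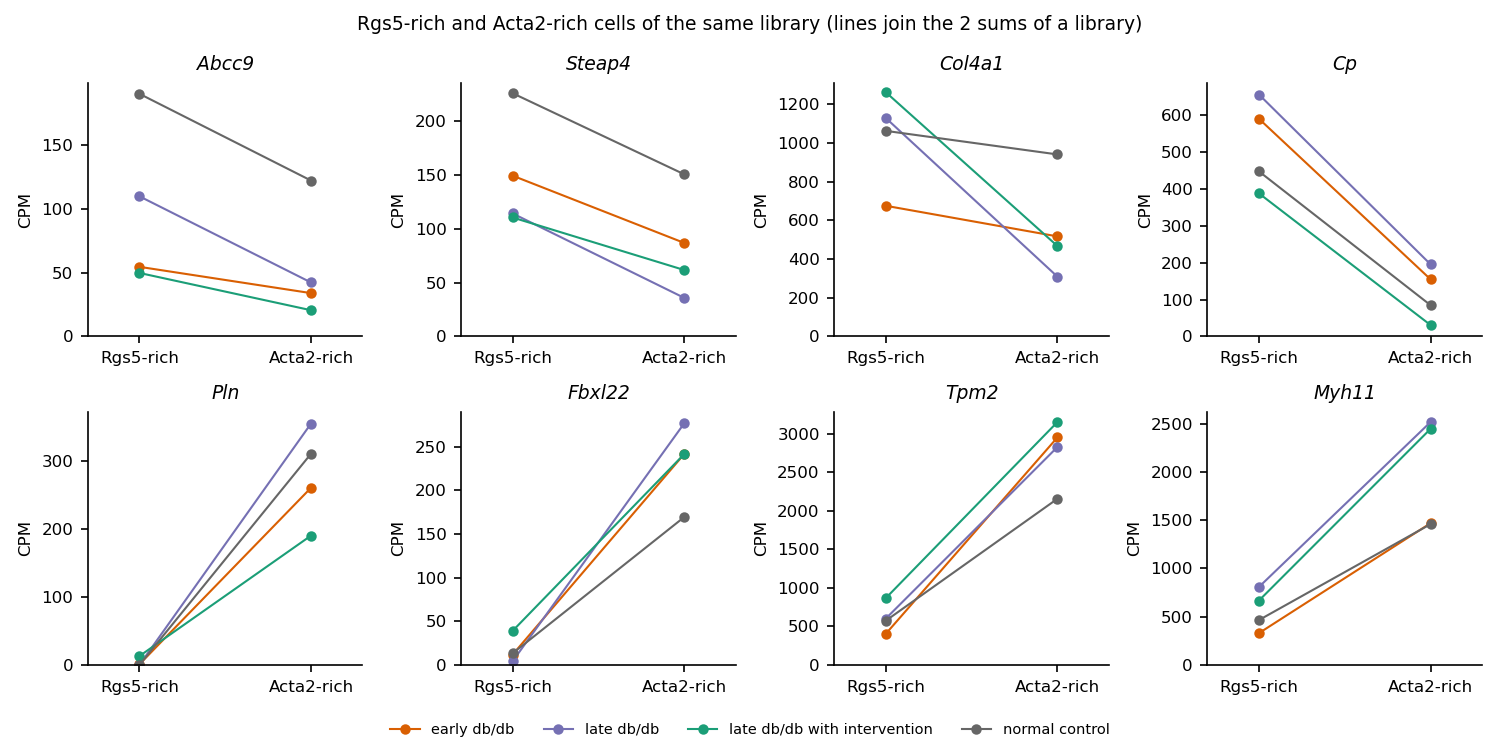
CPM (vertical axis, from 0) of 8 genes in Rgs5-rich and Acta2-rich cells, 1 line per library joining the 2 sums. Abcc9, Steap4, Col4a1 and Cp are higher on the Rgs5-rich side and Pln, Fbxl22, Tpm2 and Myh11 on the Acta2-rich side in all 4 libraries.

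On the Rgs5-rich side, Abcc9 stood at 54.6, 110.0, 49.8 and 190.5 CPM in Rgs5-rich cells of the early, late, intervention and control libraries, against 34.0, 42.3, 20.6 and 122 CPM in Acta2-rich cells. All 4 libraries showed the direction, with a log2 fold change of 0.92 ± 0.23 (adjusted p of 0.030 by edgeR), a description because Rgs5 made the split. Without other-class cells the values were 154, 126, 125 and 373 CPM against 27.8, 13.5, 13.6 and 132 CPM, and the fold change 2.24. Steap4 stood at 149, 114, 110.5 and 226 CPM in Rgs5-rich cells, against 86.9, 35.8, 61.7 and 151 CPM in Acta2-rich cells (0.91, adjusted p of 0.015 by edgeR). The control had the highest Abcc9 and Steap4 of the 4 libraries on both sides of the split.

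Of 24 pericyte genes tested, 5 were higher (Abcc9, Vtn, Steap4, Heyl and Postn) and 2 lower (Rgs4 and Mcam) in Rgs5-rich cells, with a median of -0.06. Without other-class cells 8 of 21 were higher and 0 lower, with a median of 0.39. Pdgfrb was among those called only in that fit, with 0.45 (adjusted p of 0.20 by edgeR) with all cells and 0.99 without other-class cells. Ndufa4l2, at -0.20 and 0.31, was called in neither.

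A few basement membrane and secreted genes were called, some higher and some lower. Over all genes tested, 3.29% were higher and 4.82% lower in Rgs5-rich cells, and 3.91% and 3.84% without other-class cells. Of 19 basement membrane genes tested, 3 were higher (Col4a1, Col4a2 and Lama2) and 2 lower (Lamb2 and Sparcl1) in Rgs5-rich cells; without other-class cells 4 of 11 were higher and Sparcl1 alone lower. Of 16 growth factors and ligands, 1 was higher (Wnt4) and 2 lower (Bmp2 and Igfbp5), and without other-class cells Bmp2 alone of 7 was called, lower. Col4a1 stood at 676, 1129.7, 1263 and 1063 CPM in Rgs5-rich cells of the 4 libraries in the same order, against 517, 309, 468 and 941 CPM in Acta2-rich cells (0.95, adjusted p of 0.030 by edgeR, and 1.15 without other-class cells). Sparcl1, which encodes a matricellular protein, stood at 1040, 1117, 1348 and 797 CPM in Rgs5-rich cells, against 2496, 1860, 2241 and 1318 CPM in Acta2-rich cells (-0.87, adjusted p of 0.0018 by edgeR). Cp, encoding the copper carrier ceruloplasmin, stood at 590.1, 656, 388 and 447 CPM in Rgs5-rich cells, against 155, 195, 30.8 and 84.7 CPM in Acta2-rich cells, with a log2 fold change of 2.19, and Mgp had 0.67, both called in both fits. Of 23 immediate early and heat shock genes tested, 1 was higher (Ier2) and 1 lower (Klf2), with a median of 0.14; without other-class cells Hspa1a and Hspa1b were higher of 22 and 0 lower. Of 17 chemokine and cytokine genes, 3 were lower (Ccl2, Cxcl1 and Cxcl12) and 0 higher, and without other-class cells Cxcl12 alone of 6.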

How the data were processed

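Gene-by-cell UMI counts of 4 islet libraries, prepared with the Chromium Single Cell 3′ kit v3 per the labels' protocols, were used as deposited. The counts were made with Cell Ranger 3.0.0, per the file headers; the submitters' processing notes also name CASAVA 1.8, Seurat and mm10. Any filtering before deposit is not stated there. Each library was 1 sample of its labelled group; the file name of the early db/db sample, which reads like a further control, was not followed. The mural cells and gene lists were chosen with earlier results of these data known.

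UMIs were summed over mural cells of a library and scaled to CPM outside mitochondrial genes and 7 hormone genes. Ratios carry exact conditional binomial 95% intervals, and a sum of 0 UMIs was set to 3 UMIs for a bound. UMIs of a 3′ kit are not scaled to gene length, so levels are compared within a gene. Depth was 120934779 to 166034254 UMIs a library. Cells with other-class markers held at least 3 UMIs of Epcam, Krt8, Krt18 and Krt19, at least 3 of Dcn, Lum and Dpt, at least 2 mesothelial, 3 Schwann or 5 leukocyte marker UMIs, or over 25% hormone UMIs. Insulin-rich barcodes were those with at least 20% of UMIs from Ins1 and Ins2. No doublet was removed in the main results; leaving out the highest Scrublet scores, 21 mural cells, was an alternative.

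Rgs5-rich and Acta2-rich sums were tested with edgeR 4.0.16 (R 4.3.3; TMM, quasi-likelihood, library as block, Benjamini-Hochberg); DESeq2 1.42.0 was an alternative. The block pairs sums of the same library, that is of the same islet cell suspension. Both steps were tested on simulated data. Named genes were the markers and Myl9, the 10 largest and 10 smallest ratios a comparison (12 and 12 for the split) that passed the filters, and up to 7 genes a list; other genes in the text were chosen after their values were seen. Gene positions came from GENCODE M21 and matched 559 of 561 symbols.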

Additional observations from a re-analysis of the deposited data

Results flagged for a closer look

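Among barcodes under 1000 UMIs, which the comparisons do not use, 8 of 669 in the early db/db library met the marker rule (1.20%), against 3 of 612 in the control library (0.490%).

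Of 456 genes called by edgeR between Rgs5-rich and Acta2-rich cells, 11 had the db/db libraries on one side and the control on the other. The difference between db/db and control was not tested, and the control held 19 Acta2-rich cells. For Mt2, Perp and Cck the control values rest on few UMIs. Mt2, a metallothionein gene, had a log2 fold change of 2.16, with 87.4, 220.0 and 93.2 CPM in Rgs5-rich cells of the early, late and intervention libraries against 18.9, 58.6 and 5.14 CPM in Acta2-rich cells, but 4.43 and 9.41 CPM in the control. Perp, a desmosome gene, had -1.84, and stood at 19.9 CPM in Rgs5-rich and 0 CPM in Acta2-rich control cells (9 and 0 UMIs). Cck, the cholecystokinin gene, had -1.39, and stood at 4.43 and 0 CPM in the same control cells (2 and 0 UMIs). Prss2, an acinar trypsinogen gene, had 1.31, and stood at 50.9 and 94.1 CPM there (23 and 10 UMIs).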

How the results depend on the processing

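Between libraries, counts of called genes moved most with the filter on low values. With a minimum of 100 CPM, 198 genes were called in late over control, 195 in early over control, 142 in late over early, 161 in intervention over late and 123 in intervention over control; with no minimum CPM, 820 were called in early over control and 698 in late over early. Denominator, TMM, stricter gate, Scrublet, cell weight, free RNA and both filters on other-class cells left each of these 5 counts within 1.5 times. Leaving out other-class cells gave mural shares of 4.19% in early, 0.619% in late and 1.74% in intervention, and thinning gave 5.51% in early; thinning also gave the control an Rgs5-rich share of 66.3%.

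No paired analysis was possible because each group is 1 library, for the ratios between groups. For Rgs5-rich over Acta2-rich cells, the fit with no replicate block called 190 genes, 64 higher and 126 lower; 942 of 16015 were called with no filter on low counts, 258 with DESeq2 and 238 without other-class cells. Leaving out a library in turn gave 179 to 644 calls, the lowest without early db/db and the highest without late db/db. The split by single arms was not run, since at most 8 cells of a library met the contractile arm alone.

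In the split, 21 of 307 called genes that could be tested without other-class cells had the opposite sign there, 0 of them called, and 14 of 343 without those other than fibroblast. Of the named genes, these changed direction, and the cause was not tested. Without other-class cells, Id2 in late over early was 0.47, Bgn, Col3a1, Col1a2 and Sst in intervention over control were -0.11, -0.043, -0.14 and 0.062, and Id3 and Ier2 in Rgs5-rich over Acta2-rich cells were 0.038 and -0.34. Leaving out the other-class cells other than fibroblast, an alternative chosen after seeing the data, gave Id2 and Ccl19 in late over early 0.16 and -0.34, Sst in intervention over control 0.017 and Id3 in the split 0.047. The stricter gate gave Sst 2.97 in early over control and 0.030 in intervention over control, and subtracting free RNA gave Iapp -1.30 in intervention over control. Among named genes of the group ratios, 3667 values under these alternatives stayed within the counting spread, 793 moved beyond it and 11 reversed. The low number of late cells, 57, limits every ratio with that library.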

Other observations

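A pair of genes outside the lists, chosen after their values were seen, differed in mural cells of the control from those of the other libraries. Rergl, a RAS-like gene of smooth muscle, stood at 51.4, 84.1 and 59.2 CPM in early, late and intervention cells (38, 18 and 18 cells). The 83 control cells held 0 UMIs of Rergl, where 3 UMIs would be 5.95 CPM. The other kept barcodes of any library held at most 0.0824 CPM of it. Plxdc1, a membrane protein gene known from tumour vessels, ran the other way, with 34.2, 21.5 and 20.9 CPM in early, late and intervention cells and 111 CPM in control cells. Both kept these directions without other-class cells, at 118, 179 and 105 CPM against 0 UMIs for Rergl, and 68.1, 38.3 and 27.9 CPM against 171 CPM for Plxdc1.

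Among ligands that act on islet cells, Kitl, the ligand of the receptor Kit, stood at 148 CPM in early, 119 in late, 169 in intervention and 115 in control cells. It was called in none of the 5 comparisons between libraries. Igfbp5 was called higher in early and in late cells than in control cells only without other-class cells, at 1449 and 1694 CPM against 717 CPM.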
